A study of Mus musculus with 8 samples.

Results

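The GATA, TAL1 and LMO2 regulators are the transcription factors and cofactors that direct stem cell, erythroid, megakaryocyte and mast cell gene expression, and they were followed here through 10 genes: Gata1, Gata2, Gata3, Tal1, Lyl1, Lmo2, Zfpm1, Klf1, Gfi1b and Ldb1. Members were all probe sets of the array whose only gene symbol in the platform annotation is one of these. All 10 genes were found, of 18193 genes that have a probe set of their own, through 12 of the 45037 probe sets tested, since Gata2 and Zfpm1 have 2 each. RNA of sorted mouse bone marrow cells was measured on 8 Affymetrix arrays. In one group, 4 arrays hold GMPs (the usual short name of granulocyte-macrophage progenitors) of mice with the genotype label Normal. In the other, 4 arrays hold L-GMPs of leukaemic mice with the genotype label HoxA9+Meis1 AML, an acute myeloid leukaemia named for a homeobox factor and its partner. Strain, age and the way in which the leukaemia was made are not given in the sources used here, and neither is whether each array stands for its own animal. The p-values here therefore reflect only how these samples vary, which could be technical variation. Values are log2 RMA intensities, a difference is L-GMP minus GMP, and "fell" or "rose" is used where limma's Benjamini-Hochberg adjusted p over all probe sets was below 0.05.

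GATA factors are zinc finger proteins that bind the DNA word GATA, and their use changes as cells mature, with GATA2 active in stem and progenitor cells and GATA1 in erythroid, megakaryocyte, mast cell and eosinophil precursors. TAL1 and the related LYL1 are basic helix-loop-helix factors that pair with E proteins on E-box words, and LMO2 and LDB1 bridge such pairs to GATA factors without binding DNA themselves. ZFPM1 (FOG1) is a cofactor of GATA1, and KLF1 and GFI1B act with these complexes in the erythroid and megakaryocyte branches, KLF1 as an activator and GFI1B as a repressor.

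The promoter windows of Tal1, Gata1 and Gfi1b, the members with the largest falls, and of Lyl1, the member that rose, are shown for what they hold of the words that these factors bind. RefSeq windows (GRCm38.p6, from 250 bases before to 50 after a start site) were matched for 9 of the 10 members, all but Lmo2. Each is printed 5′ to 3′ on the strand of the gene, and capitals mark a GATA word, which is AGATAA or AGATAG or TGATAA or TGATAG, or the reverse complement of one.
Tal1, upstream start, chr4:115056176-115056475, plus strand: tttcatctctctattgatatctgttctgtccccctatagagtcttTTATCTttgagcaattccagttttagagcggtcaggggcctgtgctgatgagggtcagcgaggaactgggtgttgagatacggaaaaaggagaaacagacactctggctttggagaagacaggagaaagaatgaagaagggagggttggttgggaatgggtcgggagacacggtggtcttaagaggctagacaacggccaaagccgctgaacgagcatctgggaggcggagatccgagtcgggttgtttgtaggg
Tal1, downstream start, chr4:115057561-115057860, plus strand: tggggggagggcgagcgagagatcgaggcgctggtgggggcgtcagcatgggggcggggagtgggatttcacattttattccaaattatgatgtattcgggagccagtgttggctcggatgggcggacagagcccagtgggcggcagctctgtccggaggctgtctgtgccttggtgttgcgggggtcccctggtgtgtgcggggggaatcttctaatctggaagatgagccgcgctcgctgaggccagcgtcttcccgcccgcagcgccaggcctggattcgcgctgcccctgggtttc
Gata1, chrX:7967861-7968160, minus strand: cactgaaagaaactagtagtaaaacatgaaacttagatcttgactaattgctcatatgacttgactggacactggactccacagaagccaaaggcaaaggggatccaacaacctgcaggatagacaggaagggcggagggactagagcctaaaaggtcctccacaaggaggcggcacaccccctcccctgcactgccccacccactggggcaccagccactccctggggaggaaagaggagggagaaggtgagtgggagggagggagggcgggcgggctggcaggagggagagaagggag
Gfi1b, chr2:28621933-28622232, minus strand: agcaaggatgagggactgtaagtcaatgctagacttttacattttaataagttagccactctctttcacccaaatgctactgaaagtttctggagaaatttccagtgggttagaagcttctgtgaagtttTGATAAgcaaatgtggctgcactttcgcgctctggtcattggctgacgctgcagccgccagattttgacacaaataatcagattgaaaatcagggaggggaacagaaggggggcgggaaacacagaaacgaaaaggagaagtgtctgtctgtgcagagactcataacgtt
Lyl1, chr8:84701207-84701506, plus strand: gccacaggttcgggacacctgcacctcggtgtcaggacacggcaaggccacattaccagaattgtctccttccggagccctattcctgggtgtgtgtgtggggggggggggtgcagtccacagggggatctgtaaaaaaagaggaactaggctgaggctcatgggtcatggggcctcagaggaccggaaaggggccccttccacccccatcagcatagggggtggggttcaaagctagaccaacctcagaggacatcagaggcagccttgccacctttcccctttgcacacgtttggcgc

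A GATA word was found in the upstream Tal1 window, where it starts at -205 from the start site, and in the Gfi1b window at -120. The windows of Gata1 and Lyl1 and the downstream Tal1 window held none, which says only that these letters are not in those windows. Among all members, 5 of 13 windows held one (those of Tal1, Gfi1b, Klf1, Gata3 and Ldb1), against 29.8% of all 32851 windows of the same length. E-box words (CANNTG, on both strands) were present in 8 of the 13 windows, against 72.3% of all windows, and no GATA word of a member overlapped one. A CACC word (CCNCACCC, both strands), of the kind that KLF factors bind, was present in the windows of Gata1, Gata3, Lyl1 and Ldb1, that is 4 of 13 windows against 16.6% of all. These matches describe the sequences and are not evidence of binding in these cells.

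Of the 12 member probe sets 6 passed the threshold (50%), against 10.9% of all probe sets. Lower in L-GMPs were 5 of them (Tal1, Gata1, Gfi1b, Lmo2 and 1 of the 2 for Zfpm1), where 7.03% of all probe sets were lower, and 1, that of Lyl1, was higher, where 3.89% of all were. The groups did not overlap in 7 members, 6 lower and 1 higher in L-GMPs, against 9.76% and 7.38% of all probe sets and 17.1% in either direction. The median difference of the 12 was -0.58, beside 0.0002 over all probe sets. The members were listed with earlier results of these data known, so these counts are a description. Less RNA per cell and fewer cells of a type within the sorted population cannot be told apart in such samples.

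**Figure D1:**
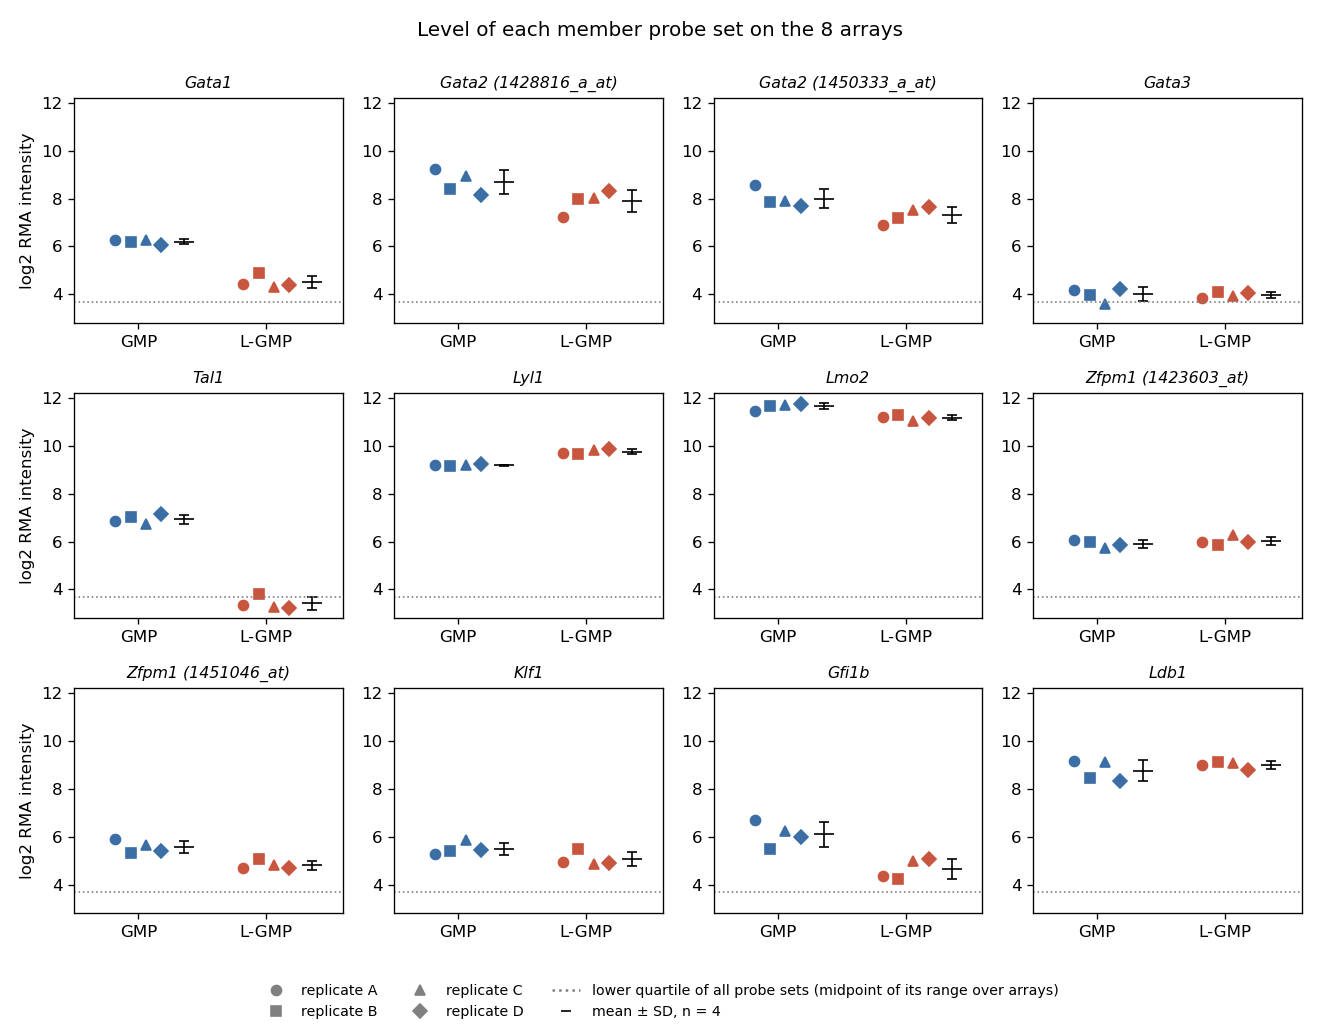
Log2 RMA intensity (vertical axis) of the 12 member probe sets on the 4 GMP and 4 L-GMP arrays, with the mean and SD of each group beside the points and the lower quartile of all probe sets dotted. Tal1 lies between 6.71 and 7.15 in GMPs and between 3.21 and 3.81 in L-GMPs, while the Lyl1 groups lie close together at 9.16 to 9.22 and 9.65 to 9.84.

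Tal1, which stem cell formation and the erythroid programme require, showed the largest difference of the 10 genes. On the GMP arrays A to D its log2 intensity was 6.85, 7.02, 6.71 and 7.15. On the L-GMP arrays A to D it was 3.37, 3.81, 3.28 and 3.21. Every L-GMP array lay far below every GMP array, and the gap between the groups was many times the spread within them. Tal1 fell by 3.52 (SE 0.15, 11.4-fold, adjusted p = 2.85e-07). Its group means were 6.93 ± 0.19 in GMPs and 3.42 ± 0.27 in L-GMPs (SD, n = 4). Since the L-GMP mean is under the lower quartile of all probe sets (3.65 to 3.75 over the arrays), how large the fall was is uncertain.

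Lyl1, the close relative of Tal1, differed in the opposite direction and was the only member that rose. Its log2 intensity was 9.18, 9.16, 9.20 and 9.22 on GMP arrays A to D and 9.69, 9.65, 9.83 and 9.84 on L-GMP arrays A to D. The GMP arrays agreed closely with each other and all lay below the L-GMP arrays. Lyl1 rose by 0.56 (SE 0.10, 1.48-fold, adjusted p = 0.00408). That rise was 0.52 to 0.71 over all alternative settings. Taken within each array, the difference between Lyl1 and Tal1 was larger in L-GMPs by 4.08 on the log2 scale, a size as uncertain as that of the Tal1 fall. That had an exact permutation p of 0.029 (2-sided, n = 4 per group), the smallest that 4 against 4 can give. Since the groups were already apart in opposite directions for Lyl1 and Tal1, this p could take no other value and adds no support. It was 0.057 after adjustment over the 3 pairs of members compared in this way, pairs that were chosen after their values were seen.

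Among the GATA factors, Gata1 fell and Gata2 and Gata3 did not pass the threshold. Gata1 was at 6.28, 6.17, 6.27 and 6.06 on GMP arrays A to D and at 4.44, 4.89, 4.32 and 4.41 on L-GMP arrays A to D. The groups were clearly apart, and L-GMP replicate B was the highest of its group, as it was for Tal1. Gata1 fell by 1.68 (SE 0.14, 3.20-fold, adjusted p = 2.77e-05), with means of 6.19 ± 0.11 in GMPs and 4.52 ± 0.25 in L-GMPs (SD, n = 4).

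Gata2 was read by 2 probe sets, 1428816_a_at and the dimmer 1450333_a_at, and both were lower in L-GMPs on average without passing the threshold. In the brighter one the GMP arrays A to D stood at 9.25, 8.38, 8.93 and 8.16 and the L-GMP arrays A to D at 7.23, 7.96, 8.03 and 8.32. L-GMP replicate D thus lay above GMP replicate D, and the groups overlapped. The difference was -0.79 (SE 0.27, 95% interval -1.39 to -0.19, adjusted p = 0.0944). In the dimmer one the GMP arrays A to D were at 8.57, 7.86, 7.88 and 7.70 and the L-GMP arrays A to D at 6.88, 7.21, 7.54 and 7.64. Here the groups did not overlap, though L-GMP replicate D came close to GMP replicate D. The difference was -0.68 (SE 0.21, 95% interval -1.16 to -0.21, adjusted p = 0.0696), and neither probe set passed under any alternative setting (adjusted p 0.0504 to 0.239). Both intervals lie below 0, so a p that misses the threshold does not show that Gata2 was alike in the groups. Within arrays, the mean of both Gata2 probe sets relative to Gata1 was higher in L-GMPs by 0.94 on the log2 scale (exact permutation p = 0.057, 2-sided, n = 4 per group, and 0.057 adjusted over the 3 pairs).

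Gata3, the GATA factor of T cells and innate lymphoid cells, was near the lower quartile of probe sets throughout. Its log2 intensity was 4.20, 3.97, 3.60 and 4.23 on GMP arrays A to D and 3.85, 4.10, 3.93 and 4.04 on L-GMP arrays A to D. The groups lay over each other, with a difference of -0.02 (SE 0.15, 95% interval -0.35 to 0.30, adjusted p = 0.944) whose sign turned after both other scalings. T cell genes, a list of 17 of which 14 were measured, had 0 of 26 probe sets past the threshold in either direction, beside 10.9% of all probe sets. Their summed intensity was 324.6 to 362.4 in GMPs and 344.7 to 409.5 in L-GMPs.

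Of the bridging proteins of the complex, Lmo2 passed the threshold and Ldb1 did not. Lmo2, which holds TAL1 and GATA factors together, stood above the 90th percentile of probe sets in both groups. It was at 11.46, 11.65, 11.69 and 11.74 on GMP arrays A to D and at 11.20, 11.26, 11.02 and 11.15 on L-GMP arrays A to D. All L-GMP arrays lay below all GMP arrays, by a small margin. Lmo2 fell by 0.48 (SE 0.11, 1.39-fold, adjusted p = 0.0168), and this call was lost after median centring of the arrays (difference -0.34, adjusted p = 0.0513), without GMP replicate B (adjusted p = 0.0523), without GMP replicate D (0.0535) and with GMP replicate D and L-GMP replicate B both left out (0.058), with adjusted p 0.00377 to 0.058 over all alternatives.

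Ldb1, the scaffold that binds LMO2 and joins distant complexes, did not differ beyond the spread between arrays. On the GMP arrays A to D it was at 9.14, 8.44, 9.10 and 8.30, and on the L-GMP arrays A to D at 8.996, 9.12, 9.07 and 8.76. GMP replicates A and C lay with the L-GMP arrays, and replicates B and D lay below all of them. The difference was 0.24 (SE 0.20, 95% interval -0.19 to 0.68, adjusted p = 0.489). Within arrays, Ldb1 relative to Lmo2 was higher in L-GMPs by 0.72 on the log2 scale (exact permutation p = 0.057, 2-sided, n = 4 per group, and 0.057 adjusted over the 3 pairs), so a difference between these genes was not shown.

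Gfi1b, a repressor that erythroid and megakaryocyte cells need, fell with the widest spread among the members that passed. Its log2 intensity was 6.71, 5.47, 6.22 and 5.96 on GMP arrays A to D and 4.34, 4.24, 4.99 and 5.05 on L-GMP arrays A to D. The groups did not overlap, and the gap was narrowest between GMP replicate B and L-GMP replicate D. Gfi1b fell by 1.43 (SE 0.27, 2.70-fold, adjusted p = 0.00715), and its p moved to 0.056 when intensities under 16 were raised to 16 for all probe sets (the floor of 16), which changes no Gfi1b value itself (0.00431 to 0.056 over all alternatives). GMP replicate B, lowest among GMPs for Gfi1b, was also lowest for the summed intensity of 16 megakaryocyte genes (1098.9, against 3183.5 on the highest GMP array) and highest for that of 17 mast cell, basophil and eosinophil genes (11880.4, against 4961.7 on the lowest). The part of these cell types in the Gfi1b values was not tested.

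Zfpm1 gave different answers by probe set. In 1451046_at, the dimmer one, GMP arrays A to D were at 5.90, 5.33, 5.66 and 5.39 and L-GMP arrays A to D at 4.68, 5.05, 4.80 and 4.67. All L-GMP arrays were below all GMP arrays, and this probe set fell by 0.77 (SE 0.15, 1.70-fold, adjusted p = 0.00855). In 1423603_at, GMP arrays A to D were at 6.06, 5.96, 5.71 and 5.84 and L-GMP arrays A to D at 5.97, 5.87, 6.25 and 5.97. These groups overlapped, with a difference of 0.12 (SE 0.12, 95% interval -0.15 to 0.39, adjusted p = 0.573). The mean of both probe sets gave -0.32 (adjusted p = 0.0681), so the direction for the gene rests on the probe set.

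Klf1, the activator of adult globin and other late erythroid genes, was in the middle of the intensity range in both groups. GMP arrays A to D were at 5.27, 5.41, 5.86 and 5.45 and L-GMP arrays A to D at 4.94, 5.50, 4.87 and 4.91. L-GMP replicate B was well above the other L-GMP arrays and reached the level of the GMP arrays. The difference was -0.44 (SE 0.17, 95% interval -0.82 to -0.06, adjusted p = 0.137), and without L-GMP replicate B it was -0.59 and passed the threshold (adjusted p = 0.0303, with 0.0303 to 0.302 over all alternatives). L-GMP replicate B was highest among L-GMPs for Gata1, Tal1, Gata3, Lmo2, Ldb1, Klf1 and the dimmer Zfpm1 probe set. The same array was lowest among L-GMPs for Gfi1b (4.24), Lyl1 (9.65) and the brighter Zfpm1 probe set (5.87). For the summed intensity of erythroid genes, in which the alpha globin gene Hba-a2 weighed most, it was highest among L-GMPs (6063.5, against 5876.9 on the lowest). It was also highest for that of mast cell, basophil and eosinophil genes (2024.1, against 1254.1), and lowest for that of monocyte and macrophage genes (8804.8, against 12687.9 on the highest). In the mast cell, basophil and eosinophil sum, Cpa3 was at 9.05 on this array and at 3.46, 5.19 and 6.75 on L-GMP arrays A, C and D. The excess was thus not shared evenly by that list. The part of these cell types in the member values was not tested.

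**Figure D2:**
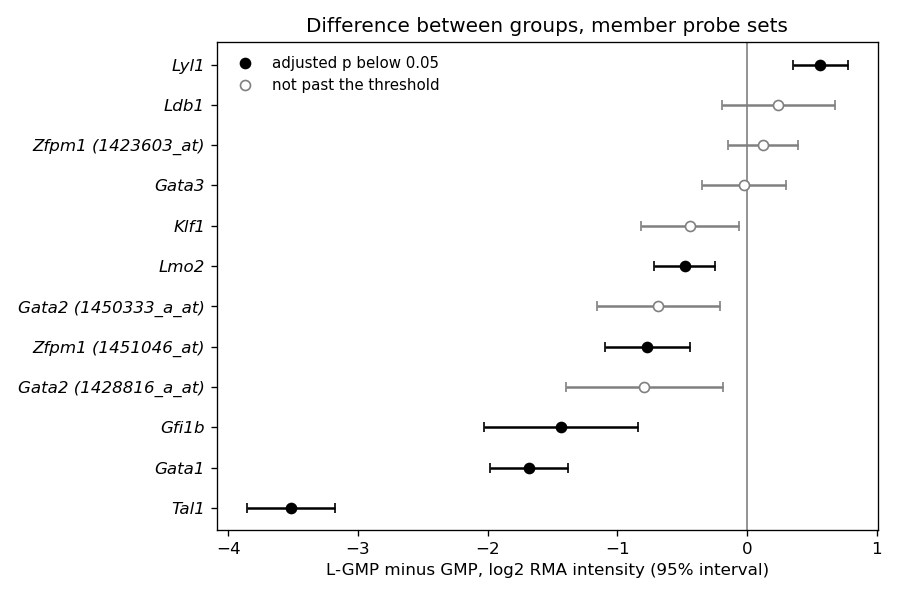
Difference between L-GMP and GMP means in log2 RMA intensity (horizontal axis) for each member probe set, with the 95% interval of limma's fit, filled where the adjusted p was below 0.05. The intervals of Tal1 (-3.86 to -3.18) and Gata1 (-1.98 to -1.38) lie far to the left, that of Lyl1 (0.35 to 0.78) to the right, and those of Gata3, Ldb1 and the brighter Zfpm1 probe set span 0.

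In order of the difference, Tal1 came first, then Gata1 and Gfi1b, whose intervals (-1.98 to -1.38 and -2.03 to -0.84) overlap. Next came both Gata2 probe sets, the dimmer Zfpm1 probe set, Lmo2 and Klf1, with differences between -0.79 and -0.44 and intervals that overlap each other. The interval of Tal1 overlaps that of no other member, and that of Lyl1 lies above 0.

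The alternatives for the member differences were other scalings, filters on dim probe sets, a floor, gene-level summaries, other variance models and left-out arrays. Tal1, Gata1, Lyl1 and the dimmer Zfpm1 probe set passed the threshold with the same direction in every alternative that could be run on them. The difference of Tal1 was -3.65 to -2.93 over these settings, and that of Gata1 -1.85 to -1.54.

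**Figure D3:**
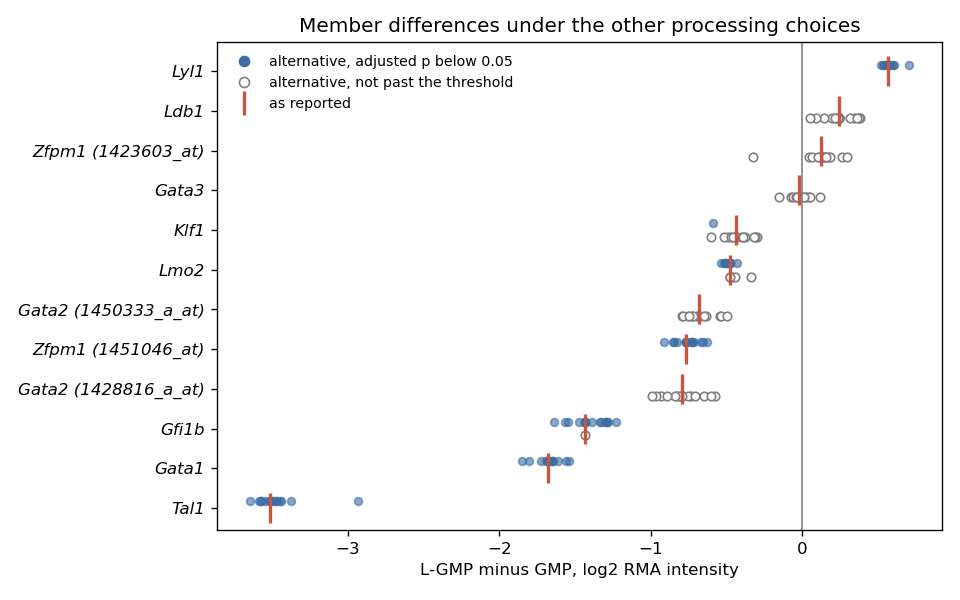
Difference between L-GMP and GMP in log2 RMA intensity (horizontal axis) for each member probe set as reported (red bar) and under the alternative settings (filled points where the adjusted p was below 0.05, open points where it was not). Tal1, Gata1, Lyl1 and the dimmer Zfpm1 probe set have filled points alone, Gata3 lies on both sides of 0, and Lmo2 and Klf1 have points of both kinds.

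Among 23 partners and cofactors of these factors, which have 72 probe sets, 5 probe sets of 4 genes rose and 4 probe sets of 3 genes fell (12.5%, beside 10.9% of all probe sets), with a median difference of 0.02. These counts were not firm. After median centring 10 rose and 1 fell, with the floor of 16 3 rose and 2 fell, with either summary by gene 0 rose and 1 fell, 1 to 3 rose without GMP replicate B, C or D or L-GMP replicate A or C, and 1 to 2 fell without any single array but GMP replicate A. Both counts also moved with GMP replicate D and L-GMP replicate B both left out, and the number that fell moved with the replicate block. Rlim, a ubiquitin ligase that targets LDB1 and LIM proteins, rose by 1.07 (SE 0.17, adjusted p = 0.00257) in 1 of its 5 probe sets. Of the E proteins that pair with TAL1 and LYL1, Tcf3 rose by 0.51 (adjusted p = 0.0208) and Tcf4 by 0.45 (adjusted p = 0.0254), each in a single probe set, and Tcf12 had none past the threshold. These E protein genes were named after their values were seen, and the alternatives were not run on them. Runx1, a core factor of blood stem cells, fell by 0.83 (SE 0.14, adjusted p = 0.00367) in one probe set and rose by 0.61 and 0.53 in others. Cbfa2t3 (ETO2), a corepressor of the complex, fell by 0.67 (SE 0.17, adjusted p = 0.0274) in its probe set with the largest change. Another of its probe sets passed as well (-0.44, adjusted p = 0.0473), while its brightest ones had differences of 0.04 and 0.04. The call of the probe set with the largest change did not hold after either of the other scalings or with the floor of 16. It was also lost without GMP replicate B or D or L-GMP replicate C, and with GMP replicate D and L-GMP replicate B both left out (range of adjusted p with every alternative 0.0158 to 0.0891). Fli1 had no probe set past the threshold.

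Of 12 relatives of the members with 26 probe sets, 2 probe sets rose and 5 fell (26.9% in all, beside 10.9% of all probe sets). The falls came from only 2 genes, Lmo4 with 1 probe set and Klf3, a repressor related to KLF1, with 4. Klf3 fell by 1.66 (SE 0.24, adjusted p = 0.00159) in the probe set with the largest change, and its other called probe sets fell by 0.89 to 1.07. Lmo1, a relative of Lmo2, rose by 0.80 (SE 0.15, adjusted p = 0.00631). Lmo4 fell by 0.77 (SE 0.20, adjusted p = 0.031), a call lost in 8 of the 19 alternatives (0.00661 to 0.109), among them leaving out L-GMP replicate A, B or D or GMP replicate A, B or C. Tal2, named after its values were seen, rose by 0.41 from 3.11 to 3.52, below the lower quartile in both groups, so this change is uncertain. Only 1 probe set of the list rose without GMP replicate B, C or D or L-GMP replicate A or D, and with GMP replicate D and L-GMP replicate B both left out. The same held with either dim filter, with the floor of 16, with the mean of probe sets and with the replicate block. Of the antagonists Spi1 (PU.1, which opposes GATA1) and the ID proteins (which bind E proteins), 0 of 9 probe sets passed. The largest difference there was 0.69 in a probe set of Id2 (SE 0.23, adjusted p = 0.0903), which passed after both other scalings, without GMP replicate C and in 1 of the remaining alternatives (0.027 to 0.223 over all alternatives), and Spi1 differed by 0.04 (SE 0.16).

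In the lists of genes from the lineages that GATA1, GATA2 and TAL1 serve, every probe set past the threshold was lower in L-GMPs, but in the erythroid and megakaryocyte lists most did not pass. The exception under the alternatives was 1 erythroid probe set that passed as higher after both other scalings, with the mean of probe sets, with array weights and without GMP replicate A or L-GMP replicate D. These lists hold markers that other cells in the gate could bring. Of 27 measured erythroid genes with 45 probe sets, 7 probe sets of 6 genes fell (15.6%, beside 7.03% of all probe sets, with a median of -0.12). Tfr2, a transferrin receptor, fell by 4.45 (SE 0.19, adjusted p = 2.85e-07). Car2, a carbonic anhydrase, fell by 4.32 (SE 0.22, adjusted p = 7.96e-07), and Hemgn (hemogen), a nuclear protein of blood progenitors, fell by 3.79 (SE 0.18, adjusted p = 4.37e-07). Both the Tfr2 probe set with the larger change (3.30) and Hemgn (2.82) had mean levels in L-GMPs under the lower quartile of probe sets. This leaves the sizes of the falls in these probe sets uncertain. Hba-a2, an alpha globin gene, was the brightest of the list and was at 11.6 ± 0.04 in L-GMPs and 11.4 ± 0.16 in GMPs (SD, n = 4), with a difference of 0.19 (adjusted p = 0.296). Other globin probe sets were far dimmer (Hba-a1 at 4.49 in L-GMPs and 4.61 in GMPs, the brighter Hbb-b2 probe set at 3.42 and 5.18). What the Hba-a2 value reads is therefore uncertain. The summed erythroid intensity, in which Hba-a2 weighed most, was 6512.8 to 7094.9 in GMPs and 5876.9 to 6063.5 in L-GMPs. Of the list only Rhag was under the lower quartile on all arrays. With L-GMP replicate A or C left out, or GMP replicate D and L-GMP replicate B together, 4 erythroid probe sets fell. With the floor of 16 there were 4 as well, and without the dimmest 50% of probe sets 3. The erythroid count was thus not firm, and its share beside that of all probe sets was not worked out for these settings.

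Of 16 measured megakaryocyte genes with 24 probe sets, 9 probe sets of 7 genes fell (37.5%, beside 7.03% of all probe sets, with a median of -0.71). Pf4, a chemokine of platelet granules, fell by 5.10 (SE 0.57, adjusted p = 0.000307). Rab27b, a granule transport protein, fell by 2.24 (SE 0.43, adjusted p = 0.00808) in its probe set with the largest change. Another of its probe sets fell by 1.265 (adjusted p = 0.00281), while the rest did not pass (-0.29, adjusted p = 0.393, and -0.34, adjusted p = 0.186). Cd9, a tetraspanin, fell by 1.89 (SE 0.15, adjusted p = 1.95e-05). The Pf4 mean in L-GMPs, 3.75, was at the lower quartile, so the size of its fall is uncertain too. The Rab27b probe set with the largest change had an L-GMP mean of 3.37, also under the lower quartile. Its call was lost with the floor of 16 (adjusted p = 0.14, and 0.000758 to 0.14 over all alternatives). The brightest probe set of the list, one of Itgb3, an integrin of platelets and other cells, had a difference of 0.36 (adjusted p = 0.506). The summed intensity was 1098.9 to 3183.5 in GMPs and 859.1 to 1426.5 in L-GMPs, so the sums overlapped. In L-GMPs this Itgb3 probe set, at 8.93 to 10.04, weighed most in the sum. The overlap therefore need not hold for the other genes of the list, and the sum without Itgb3 was not worked out. Tubb1 and Gp6, both specific to platelets, were under the lower quartile on all arrays. With the floor of 16, 3 megakaryocyte probe sets fell.

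Of 17 measured mast cell, basophil and eosinophil genes with 21 probe sets, 14 probe sets of 11 genes fell (66.7%, beside 7.03% of all probe sets, with a median of -1.11). The eosinophil granule genes Prg2 and Epx fell by 5.20 (SE 0.56, adjusted p = 0.000212) and 4.77 (SE 0.62, adjusted p = 0.000779), and Ms4a2, a chain of the IgE receptor, by 4.95 (SE 0.21, adjusted p = 2.11e-07). Epx, with an L-GMP mean of 3.86, was near the lower quartile there, which limits the size of its fall. Mcpt8, a basophil protease, had the brightest probe set over all arrays and a difference of -0.46 (adjusted p = 0.262). The summed intensity was 4961.7 to 11880.4 in GMPs and 1254.1 to 2024.1 in L-GMPs, with Tpsab1 and Ccr3 under the lower quartile on all arrays. With the floor of 16, 9 of these probe sets fell.

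Stem and multipotent progenitor genes, which GATA2, TAL1, LYL1 and LMO2 serve, gave 15 of 23 probe sets of 10 of 14 genes lower (65.2%, beside 7.03% of all probe sets, with a median of -0.96). Prom1 (CD133) fell by 5.75 (SE 0.24, adjusted p = 2.11e-07) and Angpt1, a ligand of the receptor Tek, by 3.47 (SE 0.28, adjusted p = 3e-05). Meis1, a homeobox gene named in the genotype label, fell by 3.05 (SE 0.20, adjusted p = 6.6e-06). Its other probe sets differed by -1.47 (adjusted p = 0.00448) and -2.07 (adjusted p = 1.2e-06). How the leukaemia was made is not given, so whether these probe sets read all Meis1 RNA of L-GMPs is unknown. In L-GMPs, Prom1 (mean 3.54) and Angpt1 (mean 3.62) were again under the lower quartile. Hhex, brightest of the list, had a difference of -0.11 (adjusted p = 0.787) whose sign turned after median centring. The summed intensity was 3353.2 to 3861.4 in GMPs and 1654.4 to 2651.8 in L-GMPs, and none of these genes was under the lower quartile on all arrays. The part of any of these cell types in the differences of Gata1, Tal1 and Gfi1b was not tested.

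**Figure D4:**
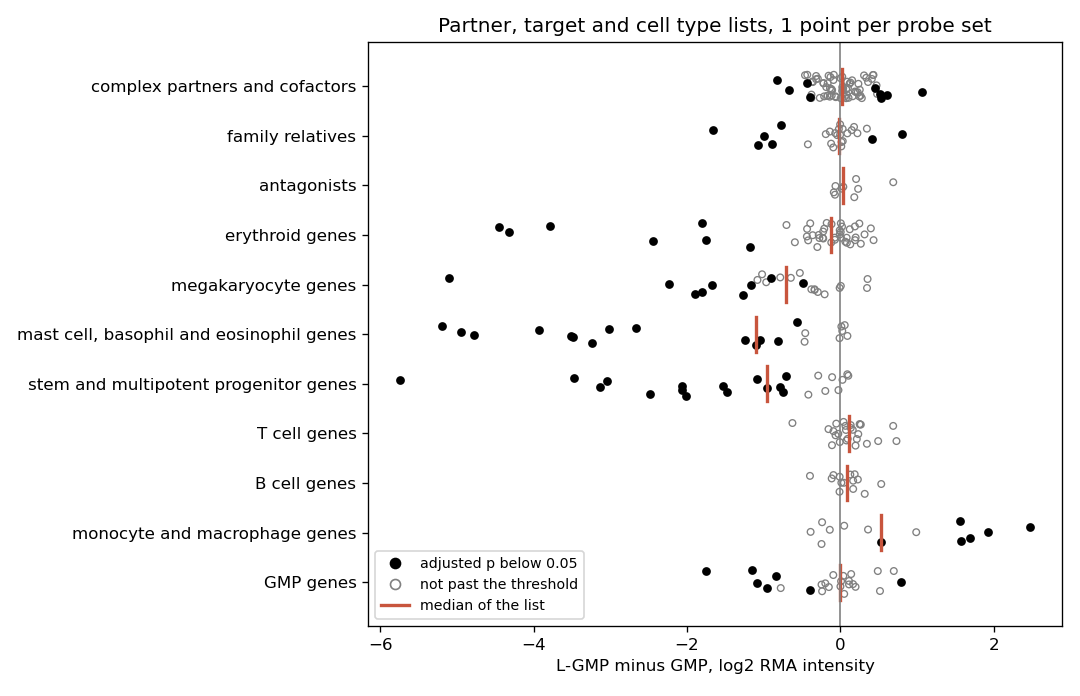
Difference between L-GMP and GMP in log2 RMA intensity (horizontal axis) for every probe set of the 11 gene lists, filled where the adjusted p was below 0.05, with the median of each list in red. Partners of the members lie around 0, while megakaryocyte, mast cell and stem cell lists extend far to the left (medians -0.71, -1.11 and -0.96) and monocyte genes to the right (0.53).

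Other lists bear on the identity of the sorted cells. Mpo and Elane, granule genes of the GMP list, were above the 90th percentile of probe sets in both groups. Mpo stood at 13.2 in L-GMPs and 13.6 in GMPs and fell by 0.39 (adjusted p = 0.0252, lost after median centring and with GMP replicate B, C or D or L-GMP replicate A, C or D left out, and 0.00127 to 0.12 over all alternatives). Elane fell by 1.75 (SE 0.38, adjusted p = 0.0145), with the lowest value, 9.73, in L-GMP replicate C. The Elane call was lost with the floor of 16, with a trended robust prior and with GMP replicate D and L-GMP replicate B both left out (0.00351 to 0.0886 over all alternatives). Csf3r and Kit, which encode the receptors of G-CSF and stem cell factor, fell by 1.16 (adjusted p = 0.00226) and 1.09 (adjusted p = 0.000267). In all, 1 of 25 GMP list probe sets rose and 6 fell (28% called, beside 10.9% of all probe sets), with a median of 0.002. The one that rose was of Csf2ra (0.79, adjusted p = 0.0147). Irf8 was higher without passing (0.70, adjusted p = 0.0676, and 0.52, adjusted p = 0.136), and Cebpa, Fcgr3, Cd34, Ctsg and Gfi1 did not pass. These genes were named after their values were seen, and the alternatives were not run on them. Over all alternatives 0 to 4 rose, with 0 under the floor of 16 and with the brightest probe set of each gene, and 4 with array weights. After median centring and without GMP replicate A or L-GMP replicate B or D, 2 to 3 rose. The number that rose also moved with a trended robust prior, with the replicate block and with GMP replicate D and L-GMP replicate B both left out. The summed intensity was 46179.9 to 49769.6 in GMPs and 33388.8 to 37307.2 in L-GMPs. Of 13 monocyte and macrophage probe sets 6 rose (46.2%, beside 3.89% of all probe sets) and 0 fell. They were led by Cd68, which rose by 2.48 (adjusted p = 1.51e-05), Mpeg1 by 1.93 and Ctss by 1.69. Csf1r did not pass in any probe set (differences 0.05, -0.24 and -0.24), and neither did Cd14 (0.99, adjusted p = 0.0802). F13a1, the brightest, rose by 1.57 (adjusted p = 4.71e-06), and the summed intensity was 4479.3 to 5062.8 in GMPs and 8804.8 to 12687.9 in L-GMPs. No T cell or B cell probe set passed (0 of 26 and 0 of 14, beside 10.9% of all probe sets). However, 3 T cell probe sets rose after median centring, 1 with array weights and without GMP replicate A or C or L-GMP replicate B, and at least 1 with the replicate block. The largest differences there were 0.73 for Il7r and 0.53 for Vpreb1, and the brightest probe sets were those of Zap70, with 0.25, and Cd79b, with -0.40. Rag1 and Ms4a1 were under the lower quartile on all arrays, and summed B cell intensity was 467.1 to 545.6 in GMPs and 461.8 to 800 in L-GMPs.

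Over the whole table, 4921 of 45037 probe sets passed, 1754 higher and 3167 lower in L-GMPs. Of those called, 35.6% were higher, against 65.9% after median centring and 46.8% after quantile normalization. Centring moved the median difference of all probe sets to 0.14, so differences of that size hold only relative to it. Lyl1 rose and Tal1, Gata1, Gfi1b and the dimmer Zfpm1 probe set fell under all 3 scalings. Array correlations across all probe sets were 0.983 to 0.994 within and 0.967 to 0.974 between groups. The 3' minus 5' control difference of Gapdh, a sign of RNA or labelling quality, was 2.74 on GMP replicate D, against 1.46 to 1.76 on the other GMP arrays and 1.24 to 1.55 on the L-GMP arrays.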

How the data were processed

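Per the submitters' processing notes, the authors made the deposited values with RMA, a background correction, quantile normalization and summary by probe set; no version of it is stated in the sources used here. The deposited values are array intensities on a linear scale, as read from their range (3.54 to 29746.73). Per the labels' protocols RNA was taken with Trizol and labelled by a whole transcript sense assay, while the probe sets are those of a 3' array, so which part of a transcript the target covers is unknown. Their number limits the precision of the arrays.

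Log2 was taken of the deposited intensities, without 64 control probe sets. Of the remaining 45037, 34945 had 1 gene symbol, 932 several and 9160 none; 34741 single-symbol probe sets matched RefSeq (GRCm38.p6) by Entrez identifier, with 0 symbols changed. The groups were compared in limma 3.58.1 under R 4.3.3 (lmFit, eBayes, group as the only term, 2-sided), adjusted by Benjamini-Hochberg over all probe sets at 0.05. The fit was tested on simulated data. Of 172 genes on the lists 154 were measured by a probe set of their own. Summed intensities are linear sums of the brightest probe set of each gene. Named from each list were up to 3 genes with the largest differences among those past the threshold with groups that do not overlap, or the largest where none passed, and for cell types the brightest. Members and lists were chosen with earlier results of these data known. The 19 alternatives were median centring and quantile normalization of the arrays, leaving out the dimmest 25% or 50% of probe sets, a floor of 16 on the linear scale, the brightest or the mean of the probe sets of each gene, array weights, a robust prior with a trend, a block for the replicate letter, each of the 8 arrays left out, and GMP replicate D and L-GMP replicate B both left out.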

Additional observations from a re-analysis of the deposited data

Results flagged for a closer look

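Among 94 sets of 4 arrays screened (47 named probe sets in each group), 8 had a single array far from the other 3, where chance flags about 1 in 20. Of the members, only Klf1 was among them: L-GMP replicate B was at 5.50 and the other L-GMP arrays at 4.87 to 4.94. The others were genes of the lists. L-GMP replicate C was high for Lmo4 (7.99, others 7.74 to 7.78) and Prg2 (6.37, others 4.44 to 4.72). L-GMP replicate D was high for Car2 (5.26, others 4.18 to 4.35) and Tfr2 (3.94, others 3.02 to 3.17). GMP replicate A was low for Mpeg1 (8.78, others 9.21 to 9.26), Cd68 (6.70, others 6.87 to 6.89) and Vpreb1 (5.77, others 6.88 to 7.01).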

How the results depend on the processing

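The count of probe sets past the threshold was 4921, against 2717 with the floor of 16, 2193 with the brightest probe set of each gene and 2569 with the mean of its probe sets (both over 18193 genes), and 2972 to 5334 with 1 array left out, where leaving out GMP replicate B (2972) or D (3244) lowered it by over 1.5 times. The members that fell numbered 5, and 3 without the dimmest 50% of probe sets, a filter that itself removed Tal1 and the dimmer Zfpm1 probe set; with 1 array left out they numbered 4 to 6, and 1 rose in each. Of 220 member values under the 19 alternatives, 206 kept their direction and side of the threshold, 6 lost the threshold (5 of Lmo2 and 1 of Gfi1b), 1 passed (Klf1) and 7 turned sign. Gata3 turned to 0.12 (median centring), 0.0218 (quantile normalization) and 0.0131 (GMP replicate D and L-GMP replicate B both left out), and ranged from -0.156 to 0.0531 with 1 array left out. The brighter Zfpm1 probe set turned to -0.32 in the mean of both, Hhex to 0.0341 after median centring (-0.250 to 0.0628 with 1 array left out) and Vpreb1 ranged from -0.0117 to 0.900 with 1 array left out. The cause was not tested. Replicate letters gave no pairing: same-letter deviations correlated at -0.04, -0.001, -0.07 and 0.10, and 1 of 4 L-GMP arrays correlated best with its own letter. With the replicate block 4077 probe sets passed, 1 member rose and 4 fell, with Lmo2 (adjusted p = 0.0509) and Mpo (0.0660) lost and Id2 gained (0.0342). The block changed no other call of the named probe sets on which the alternatives were run. Tal2, the E proteins and further probe sets of some named genes were not among these. In the list counts, the block also lowered the number of relatives that rose and of partners and cofactors that fell. Levels near the lower quartile of intensity limit the sizes for Tal1, the Tfr2 probe set with the larger change, Hemgn, Pf4, Rab27b, Epx, Prom1 and Angpt1.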
